A study of Mus musculus with 8 samples.

Results

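The polyamine synthesis and antizyme genes are 10 mouse genes whose products make putrescine, spermidine and spermine and hold their amounts in check. They are Odc1, Amd1, Amd2, Srm and Sms, which encode synthesis enzymes, Oaz1, Oaz2 and Oaz3, which encode antizymes, and Azin1 and Azin2, which encode antizyme inhibitors. The members were chosen by name, as the rows of the count table whose Ensembl identifiers carry these symbols. The table had 56748 gene rows, of which 21952 had enough counts for a test, and all 10 members were among the tested rows.

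RNA was sequenced from whole adult testis of mice labelled with the genotype Ssty2-/- (4 libraries, called knockout here) and of mice labelled WT (4 libraries, called wild type here). Ssty2 is a gene of the long arm of the mouse Y chromosome that occurs in many copies and is transcribed in spermatids, the germ cells after meiosis. The labels name no strain, age in days, number of animals or method by which the gene was removed, and they do not say that the libraries come from separate mice. The p-values therefore measure how far these libraries scatter, and that scatter may be technical.

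Polyamines are small positively charged molecules that bind nucleic acids and are needed for cell growth and for the making of sperm. Ornithine decarboxylase, the product of Odc1, makes putrescine from ornithine. S-adenosylmethionine decarboxylase, the product of Amd1, supplies the aminopropyl groups that spermidine synthase (Srm) and spermine synthase (Sms) add to it. Antizymes bind and inhibit ornithine decarboxylase, and antizyme inhibitors are enzymatically inactive relatives of ornithine decarboxylase that capture antizymes. In mice, Oaz3 is the antizyme of haploid germ cells, and Azin2 is the antizyme inhibitor of testis and brain.

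The labels were checked on the targeted gene and on cell markers. The row read for Ssty2 had 0 counts in each of the 4 knockout libraries, against 56, 78, 83 and 45 counts in wild-type libraries 1 to 4. Copies of the gene that may be counted in other rows were not examined, so the check covers this row alone. CPM stands for counts of a gene relative to the library's total, with libraries scaled by TMM factors. A count of 0 allows up to 3 counts, which equal 0.133 to 0.166 CPM in a knockout library before that scaling. Totals lay between 18036708 and 22639737 counts in the knockout libraries and between 18763650 and 24415587 counts in the wild-type libraries. The correlation of log2 CPM over tested genes was 0.990 to 0.995 between libraries of a group and 0.968 to 0.976 between libraries of different groups. Germ cell markers were abundant in all libraries. The summed level of 12 round spermatid markers was 3079 to 3199 CPM in the knockout libraries and 1999 to 2364 CPM in the wild-type libraries.

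Of the 10 members, 3 were higher in knockout (Oaz3, Azin2 and Odc1) and 5 were lower (Amd2, Srm, Amd1, Oaz1 and Oaz2), while Sms and Azin1 did not pass the test. A call means a Benjamini-Hochberg adjusted p under 0.05 over all tested genes in edgeR's quasi-likelihood test. The genotype difference was broad across the transcriptome: 53.5% of all tested genes were called, 26.2% higher and 27.4% lower, so a call is common among these genes. The groups did not overlap for 9 of the 10 members, against 46.7% of all tested genes. The median log2 fold change, knockout over wild type, was -0.19 over the members and -0.0089 over all tested genes. The middle part of all genes lay between a lower quartile of -0.37 and an upper quartile of 0.33. Oaz3, Azin2 and Odc1 lay above that span, and Srm and Amd2 lay below it.

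**Figure D1:**
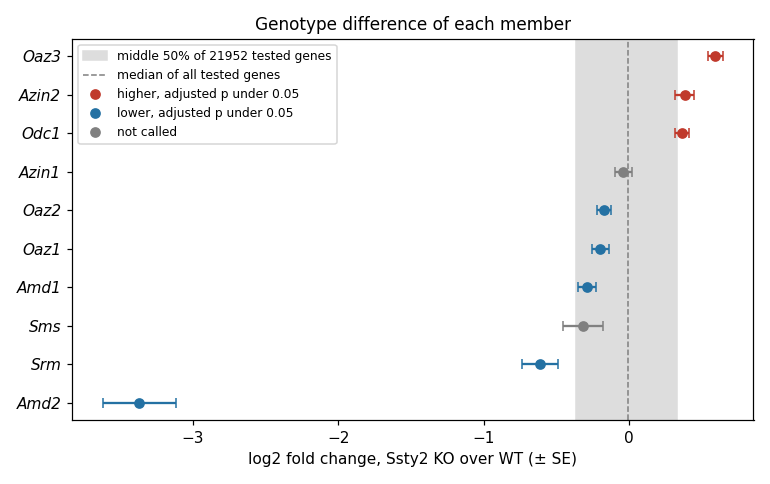
Log2 fold change, knockout over wild type, of the 10 members, with the standard error of the fit as bars; the grey band spans the quartiles of all 21952 tested genes and the dashed line is their median. Oaz3 at 0.59 is at the top and Amd2 at -3.37 at the bottom, and Amd1, Oaz1 and Oaz2 are lower but within the band.

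Odc1 (ENSMUSG00000011179, chromosome 12), the gene of the enzyme that commits ornithine to polyamines, was 1.29-fold higher in knockout. Its level was 436, 477, 470.3 and 463 CPM in knockout libraries 1 to 4, against 369, 339.8, 361 and 366 CPM in wild-type libraries 1 to 4. Every knockout library was above every wild-type library. The means were 462 ± 18.02 CPM in knockout and 359 ± 13.2 CPM in wild type (SD, n = 4 each), and the log2 fold change was 0.36 ± 0.04997 (SE; edgeR quasi-likelihood adjusted p = 1.74e-05, by Benjamini-Hochberg).

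An Odc1-related processed pseudogene bears on this value. Processed pseudogenes are copies of spliced transcripts inserted back into the genome, and Gm7993 on chromosome 5 shares 51.8% of its 31-base words with Odc1. Gm7993 had 1053, 23, 25 and 15 counts in knockout libraries 1 to 4, against 949, 891, 1099 and 894 counts in wild-type libraries 1 to 4. Knockout library 1 was at the wild-type level, and the other 3 knockout libraries were far below it. The log2 fold change of Gm7993 was -1.56 over all 8 libraries (edgeR adjusted p = 0.0921) and -5.35 without knockout library 1 (edgeR adjusted p = 6.2e-15).

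Summing both rows left Odc1 higher by a smaller amount. Odc1 and Gm7993 together stood at 493, 478, 471 and 464 CPM in knockout libraries 1 to 4, against 418, 379, 404 and 409 CPM in wild-type libraries 1 to 4. The groups still did not overlap. With the counts of all its related pseudogenes added, the log2 fold change of Odc1 was 0.24 ± 0.0486 (SE, edgeR adjusted p = 0.000563), and without knockout library 1 it was 0.23 (edgeR adjusted p = 0.00183). This sum was chosen after seeing the data, and how reads shared by both rows were counted is not given in the sources used here. The values of 0.24 and 0.23 lay below the upper quartile of all tested genes in the main fit (0.33), whereas 0.36 lay above it.

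Amd1 (ENSMUSG00000075232, chromosome 10), the gene of the decarboxylase that feeds both aminopropyl transfers, was lower in knockout. It was at 60.2, 63.7, 62.6 and 67.2 CPM in knockout libraries 1 to 4, against 75.0, 82.9, 77.0 and 75.1 CPM in wild-type libraries 1 to 4. All knockout libraries were below all wild-type libraries. Amd1 averaged 63.4 ± 2.89 CPM in knockout and 77.5 ± 3.73 CPM in wild type (SD, n = 4 each), a log2 fold change of -0.29 ± 0.0597 (SE, edgeR adjusted p = 0.000685).

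Amd2 (ENSMUSG00000063953), also on chromosome 10, had the largest change among the members. It is annotated as a single exon of 3218 bases, whereas the exons of Amd1 form 8 blocks, and its sequence is that of a spliced copy of Amd1, or retrocopy. Amd2 had 11, 7, 5 and 11 counts in knockout libraries 1 to 4, against 89, 114, 127 and 77 counts in wild-type libraries 1 to 4. The highest knockout library was below the lowest wild-type library by a wide margin, and the knockout values rest on 34 counts in all, against 407 counts in wild type. On the CPM scale Amd2 averaged 0.449 ± 0.197 in knockout and 4.55 ± 0.596 in wild type (SD, n = 4 each). The fitted level was 10.3-fold lower in knockout, a log2 fold change of -3.37 ± 0.251 (SE, edgeR adjusted p = 3.28e-08).

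The coding sequences of both genes show how little separates them, so the stretch around their difference is printed here. Both hold 1005 coding bases and are 99.9% identical, with 1 difference, G796C, in which the first letter is the base of Amd1, the position is counted from the A of the start codon and the last letter is the base of Amd2. Coding bases 766 to 826 of each, from the GENCODE vM21 transcripts, follow 5′ to 3′, with the differing base in capitals.

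Amd2: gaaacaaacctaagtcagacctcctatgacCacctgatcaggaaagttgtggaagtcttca

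Amd1: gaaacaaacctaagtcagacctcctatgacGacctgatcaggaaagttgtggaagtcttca

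Within the coding sequence, only 31-base words that span the differing base were found in Amd2 alone, and no such word was found in Amd1 alone. Of the 31-base words in Amd2, 90.9% also occur in another gene, and 82.8% of those in all transcripts of Amd1 do. The 289 words found in Amd2 alone cover 602 of its 3218 bases, of which 123 lie before the coding sequence, 61 within it and 418 after it. In the 1 Amd1 transcript read in this way, 244 words found in Amd1 alone cover 497 of its 3204 bases. Of these bases, 88 lie before the coding sequence, 0 within it and 409 after it. Other transcripts of Amd1 hold further words found in Amd1 alone. The treatment of reads that match several places is not given in the sources used here, so the split of counts between both rows is uncertain. Summed into 1 row, a choice made after seeing the data, Amd1 and Amd2 had a log2 fold change of -0.36 (edgeR adjusted p = 0.000101).

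The share of Amd2 among the counts of both genes does not depend on library scaling. Amd2 made up 0.971%, 0.514%, 0.377% and 0.944% of these counts in knockout libraries 1 to 4, against 5.75%, 5.67%, 6.04% and 4.70% in wild-type libraries 1 to 4. Amd1 therefore held most of the counts in every library, and the groups did not overlap. The log2 ratio of Amd2 to Amd1 counts, with 0.5 added to each, averaged -7.17 ± 0.643 in knockout and -4.09 ± 0.166 in wild type (SD, n = 4 each). The difference was -3.08 (two-sided exact permutation p = 0.0286, the smallest that 4 libraries against 4 can give), or 0.05 after Benjamini-Hochberg adjustment over 7 ratios, which is at the threshold and not under it.

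**Figure D2:**
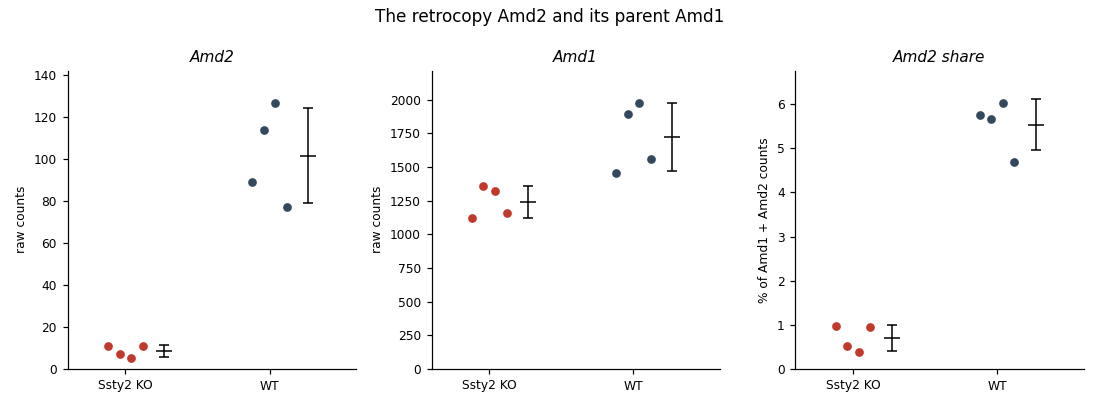
Raw counts of the retrocopy Amd2, raw counts of its parent Amd1, and the share of Amd2 in their sum, with 1 point per library, knockout to the left of wild type, and the mean ± SD beside the points. The knockout libraries hold 5 to 11 Amd2 counts and the wild-type libraries 77 to 127, while Amd1 differs far less.

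Upstream of the transcript the copies part ways, which is why their start regions are shown. The windows run from 150 bases before the annotated start to 25 bases after it, on the minus strand of GRCm38.p6, at chr10:35711867-35712041 for Amd2 and chr10:40302164-40302338 for Amd1. The sequences are RefSeq's, 5′ to 3′, and capitals mark the longest run found in both.

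Amd2: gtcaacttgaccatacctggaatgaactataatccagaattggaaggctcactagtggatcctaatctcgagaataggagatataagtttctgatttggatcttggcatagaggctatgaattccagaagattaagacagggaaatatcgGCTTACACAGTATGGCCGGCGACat

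Amd1: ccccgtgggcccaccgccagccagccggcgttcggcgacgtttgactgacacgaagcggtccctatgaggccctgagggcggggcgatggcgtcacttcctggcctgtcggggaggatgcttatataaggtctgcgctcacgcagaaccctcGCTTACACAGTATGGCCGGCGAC

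The shared run began at the annotated start of Amd2, so the longest match between both windows lay in transcribed sequence. It ran to the end of the Amd1 window, so its length of 23 bases is set by that window. Both windows hold transcribed bases, which the copies largely share, so a match there could be foreseen.

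The rows of annotated Amd pseudogenes held few counts. The 5 rows together had 39 counts in knockout and 65 counts in wild type, and none of them passed the filter for testing.

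Srm (ENSMUSG00000006442, chromosome 4), which encodes the enzyme that turns putrescine into spermidine, was lower in knockout. It was at 5.96, 5.40, 5.06 and 5.24 CPM in knockout libraries 1 to 4, against 9.32, 7.17, 8.49 and 8.22 CPM in wild-type libraries 1 to 4. The groups were separate, with the knockout libraries close together. Srm averaged 5.42 ± 0.387 CPM in knockout and 8.30 ± 0.884 CPM in wild type (SD, n = 4 each), a log2 fold change of -0.61 ± 0.123 (SE, edgeR adjusted p = 0.000541).

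Sms (ENSMUSG00000071708, X chromosome), which encodes the enzyme that turns spermidine into spermine, did not pass the test. Its values were 6.87, 6.90, 4.54 and 6.35 CPM in knockout libraries 1 to 4, against 7.26, 7.52, 8.18 and 7.74 CPM in wild-type libraries 1 to 4. Although the groups did not overlap, knockout library 3 stood below the other knockout libraries. The log2 fold change was -0.32 ± 0.137 (SE, edgeR adjusted p = 0.0596). It was -0.19 without knockout library 3 (edgeR adjusted p = 0.213), and it passed the threshold without knockout library 1 (-0.37, edgeR adjusted p = 0.0423) or knockout library 2 (-0.38, edgeR adjusted p = 0.0445). The log2 ratio of Sms to Srm counts was 0.17 ± 0.225 in knockout and -0.11 ± 0.180 in wild type, and the groups overlapped (SD, n = 4 each; exact permutation p = 0.114, adjusted p = 0.16).

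**Figure D3:**
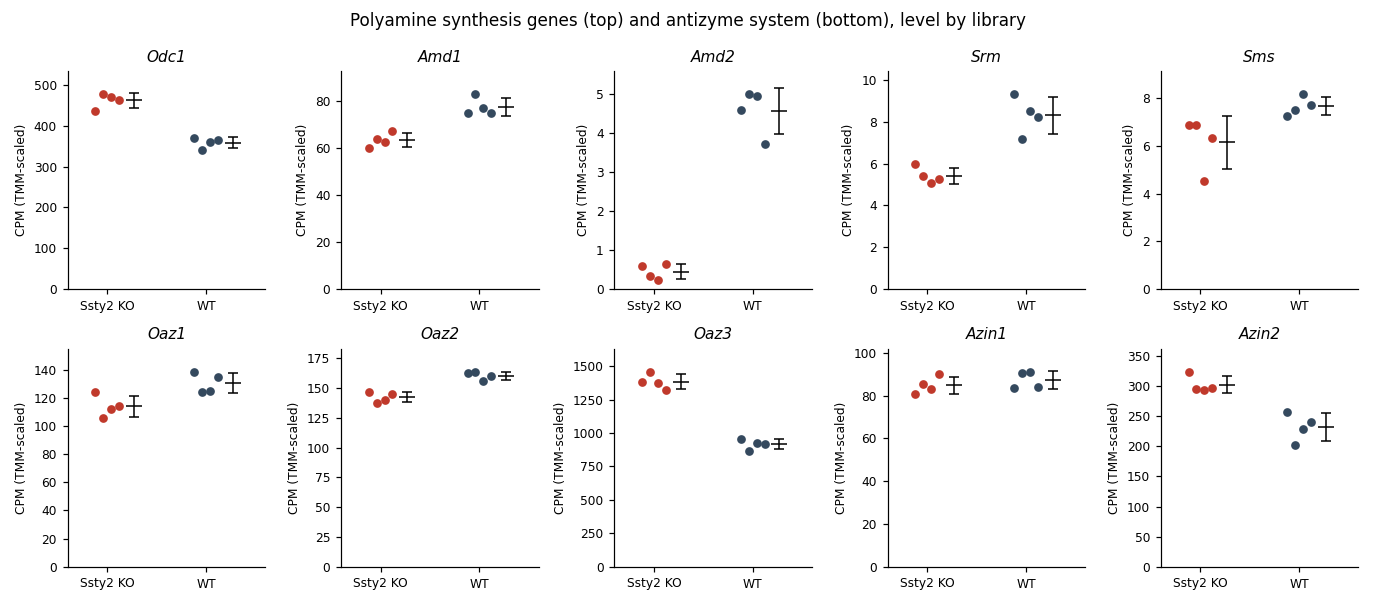
TMM-scaled CPM of the 10 members in each library, with synthesis genes in the upper row and the antizyme system in the lower row, knockout to the left of wild type, and the mean ± SD beside the points; every axis starts at 0 and each gene has its own scale. Points of both groups overlap for Azin1 alone.

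The 3 antizyme genes did not move in the same direction. Oaz3 was higher in knockout, and Oaz1 and Oaz2 were both lower by small amounts. What they share is a translational frameshift: ribosomes meet a stop codon early in the message and, when polyamines are plentiful, slip by 1 base there and go on to make the full antizyme. The sequences at that stop codon are printed because they are the common regulatory feature of the family. Each line gives 30 bases from a GENCODE vM21 transcript, 5′ to 3′, with the TGA stop codon in capitals.

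Oaz1: gggcctcggtggtgctccTGAtgtccctca

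Oaz2: gggcctctgtggtgctccTGAtgcccctca

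Oaz3: tcctgcctccagtgctccTGAgtccctagg

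The longest run ending in TGA that transcripts of all 3 genes share was GTGCTCCTGA. Searched on the transcript strand only, it occurred in the transcripts of these 3 members and of no other member. It was present in 259 of 55450 annotated genes with transcripts, or 0.467%.

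Oaz3 (ENSMUSG00000028141, chromosome 3), the antizyme gene of haploid germ cells, was higher in knockout. Its level was 1382, 1457, 1373 and 1319 CPM in knockout libraries 1 to 4, against 959, 869, 928 and 917 CPM in wild-type libraries 1 to 4. The lowest knockout library exceeded the highest wild-type library. Means were 1383 ± 56.8 CPM in knockout and 918 ± 37.2 CPM in wild type (SD, n = 4 each), a 1.51-fold higher level in knockout with a log2 fold change of 0.59 ± 0.0502 (SE, edgeR adjusted p = 1.34e-07).

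Markers of the cells that express Oaz3 moved with it. All 11 tested round spermatid markers and all 10 elongating spermatid markers were called higher, and the elongating spermatid markers had summed levels of 21004 to 24176 CPM in knockout and 13438 to 16649 CPM in wild type, and no marker of either list was at 0. Set against the summed round spermatid markers, the log2 ratio of Oaz3 counts was -1.19 ± 0.0782 in knockout and -1.27 ± 0.0536 in wild type (SD, n = 4 each). Those ratios overlapped between groups, and their difference of 0.083 did not pass (exact permutation p = 0.143, adjusted p = 0.167). With elongating spermatid markers in their place the difference was -0.054. In bulk tissue, a different share of cells of a type and a different amount of RNA per cell cannot be told apart.

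Exons of Oaz3 overlap those of Tdrkh and Mrpl9 on the opposite strand, and the strand setting of the counting is not given in the sources used here. Tdrkh, a gene of the piRNA pathway, had a log2 fold change of -0.12 (edgeR adjusted p = 0.0958), and Mrpl9, which encodes a mitochondrial ribosomal protein, had one of -0.22 (edgeR adjusted p = 0.0366). The call of Mrpl9 was lost without knockout library 2, 3 or 4 or wild-type library 2 or 4 (edgeR adjusted p between 0.0636 and 0.115). Neither overlapping gene was higher in knockout, but this cannot show how reads in the overlap were counted. The overlap, summed over both genes, is 2412 bases, beside 4326 exon bases of Oaz3. Its part in the Oaz3 value was not tested.

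Oaz1 (ENSMUSG00000035242, chromosome 10), the antizyme gene active in most tissues, was lower in knockout. It was at 123.8, 106, 112 and 114 CPM in knockout libraries 1 to 4, against 138, 124.2, 125 and 135 CPM in wild-type libraries 1 to 4. The groups only just failed to overlap, since knockout library 1 lay next to wild-type library 2. The log2 fold change was -0.20 ± 0.0606 (SE, edgeR adjusted p = 0.0114), with means of 114 ± 7.47 CPM in knockout and 131 ± 7.12 CPM in wild type.

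Oaz2 (ENSMUSG00000040652, chromosome 9), the second widely expressed antizyme gene, was at 147, 138, 139.7 and 145 CPM in knockout libraries 1 to 4, against 162, 164, 156 and 159.8 CPM in wild-type libraries 1 to 4. All knockout libraries were below all wild-type libraries. Its log2 fold change was -0.17 ± 0.0493 (SE, edgeR adjusted p = 0.00705), with means of 142 ± 4.15 CPM in knockout and 160.5 ± 3.29 CPM in wild type.

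Within the family, the balance between antizymes was compared as ratios of counts in the same library. The log2 ratio of Oaz3 to Oaz1 was 3.60 ± 0.132 in knockout and 2.81 ± 0.0544 in wild type (SD, n = 4 each). The groups did not overlap, with a difference of 0.79 (exact permutation p = 0.0286, adjusted p = 0.05). The log2 ratio of Oaz2 to Oaz1 was 0.32 ± 0.0583 in knockout and 0.30 ± 0.0774 in wild type, with overlapping groups and a difference of 0.025 (exact permutation p = 0.657). Per kilobase of the longest protein-coding transcript, Oaz3 made up 88.9% ± 0.761 of the antizyme level in knockout and 82.4% ± 0.507 in wild type (SD, n = 4 each).

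Azin2 (ENSMUSG00000028789, chromosome 4), the antizyme inhibitor gene of testis and brain, was 1.30-fold higher in knockout. It was at 324, 295, 294 and 297 CPM in knockout libraries 1 to 4, against 257, 202, 229 and 241 CPM in wild-type libraries 1 to 4. Knockout library 1 stood above the other 3, which were nearly equal, and the groups did not overlap. The means were 302 ± 14.1 CPM in knockout and 232 ± 23.3 CPM in wild type (SD, n = 4 each), with a log2 fold change of 0.38 ± 0.0664 (SE, edgeR adjusted p = 0.000162). Without knockout library 1 it was 0.35 (edgeR adjusted p = 0.000396). The part of the spermatid markers, which were also higher, in the values of Azin2 and Odc1 was not tested.

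Azin1 (ENSMUSG00000037458, chromosome 15), the widely expressed antizyme inhibitor gene, was not called. Its values were 80.6, 85.5, 83.2 and 90.2 CPM in knockout libraries 1 to 4, against 83.4, 90.7, 91.1 and 83.9 CPM in wild-type libraries 1 to 4. The groups overlapped over most of their range. The log2 fold change was -0.041 ± 0.0585 (SE, edgeR adjusted p = 0.578). Gm49077, an antisense gene that overlaps Azin1, was higher by 0.26 on the log2 scale (edgeR adjusted p = 0.0168), a call lost without knockout library 1 or wild-type library 2 (edgeR adjusted p = 0.0577 and 0.0651). The log2 ratio of Azin2 to Azin1 counts was 1.83 ± 0.122 in knockout and 1.41 ± 0.208 in wild type, with no overlap and a difference of 0.43 (exact permutation p = 0.0286, adjusted p = 0.05).

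Odc1 was also set beside Oaz1, the antizyme gene active in most tissues. The log2 ratio of Odc1 to Oaz1 counts was 1.82, 2.17, 2.07 and 2.02 in knockout libraries 1 to 4, against 1.41, 1.45, 1.53 and 1.44 in wild-type libraries 1 to 4. The knockout libraries were all higher, with a mean difference of 0.56 (exact permutation p = 0.0286, adjusted p = 0.05). Oaz3, which made up most of the antizyme level, was not set against Odc1 as a ratio. Its log2 fold change was 0.59, beside 0.36 for Odc1, so the ratio to Oaz1 does not describe the antizymes together. The counts of the pseudogene Gm7993 were not added to Odc1 here.

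**Figure D4:**
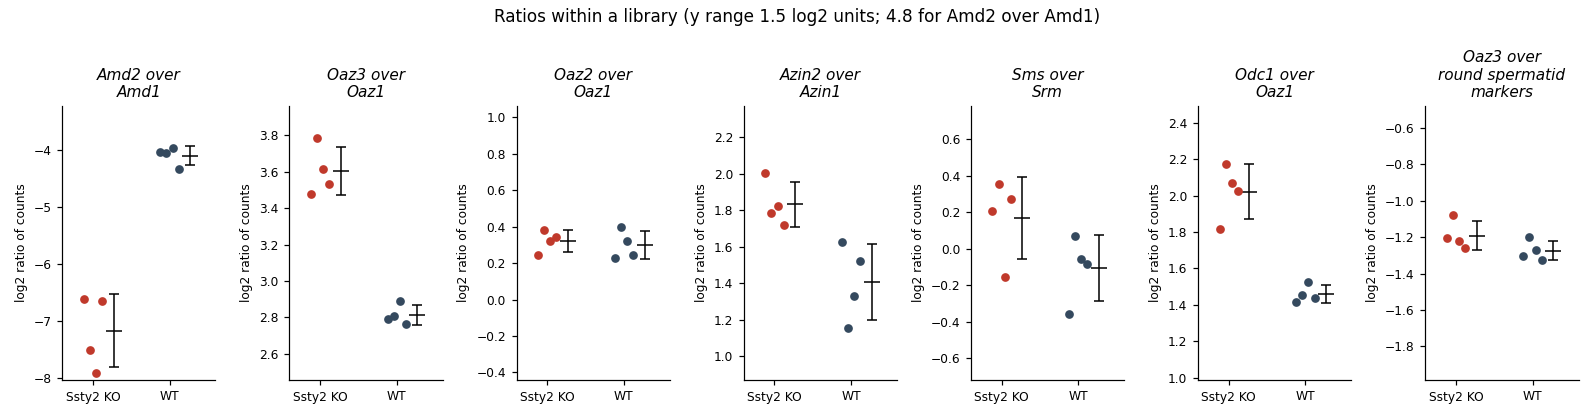
Log2 ratios of counts of the 7 pairs compared, with 1 point per library, knockout to the left of wild type, and the mean ± SD beside the points; the axes span equal ranges except for Amd2 over Amd1. Groups are separate for Amd2 over Amd1, Oaz3 over Oaz1, Azin2 over Azin1 and Odc1 over Oaz1, and overlap for the other 3 ratios.

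Compared per kilobase of exon, so that genes of different length can be ordered, the members spanned a wide range of levels. In knockout the order was Oaz3 (319.6 CPM per kilobase), Odc1 (136), Azin2 (75.2), Oaz2 (47.6), Oaz1 (44.5), Amd1 (17.9), Azin1 (13.6), Srm (3.39), Sms (1.03) and Amd2 (0.140). In wild type it was Oaz3 (212 CPM per kilobase), Odc1 (105), Azin2 (57.7), Oaz2 (53.7), Oaz1 (51.1), Amd1 (21.9), Azin1 (14.0), Srm (5.19), Amd2 (1.42) and Sms (1.28). On this length the order differed between groups only at its end, where Amd2 was last in knockout and next to last in wild type. With the longest transcript or the longest protein-coding transcript as the length, Amd2 was last in both groups. The ranges of Oaz2 and Oaz1 overlapped in both groups. In wild type the range of Azin2 overlapped those of Oaz2 and Oaz1, and those of Amd2 and Sms overlapped as well. Transcripts that keep introns lengthen the annotated exons of Oaz3 and Oaz1. With the longest protein-coding transcript as the length, a choice made after seeing the data, Oaz3 stood at 1479 CPM per kilobase in knockout and 982 CPM per kilobase in wild type, and Oaz1 at 106 CPM per kilobase in knockout and 122 CPM per kilobase in wild type. On that scale Oaz1 ranked above Oaz2 in both groups and above Azin2 in wild type, though the ranges of Oaz1 and Azin2 overlapped there.

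The wider polyamine pathway was described by 6 lists that hold 44 genes, of which 37 were tested. Of these 37, 6 were higher and 23 were lower in knockout, or 16.2% and 62.2%, beside 26.2% and 27.4% of all tested genes. Their median log2 fold change was -0.49, beside -0.0089 over all tested genes. Markers of somatic testis cells were lower as well: 12 of 13 tested Sertoli cell markers and 8 of 8 Leydig cell markers were called lower. Summed Sertoli cell markers lay between 669.9 and 767 CPM in knockout and between 1062 and 1219.6 CPM in wild type, and summed Leydig cell markers between 942 and 1059 CPM in knockout and between 1811 and 2099.7 CPM in wild type, with no marker of either list at 0. Of 12 spermatogonia markers, 9 were lower and 1 was higher, and of 12 spermatocyte markers, 5 were lower and 2 were higher. The part of these cell types in the lower levels of members and pathway genes was not tested.

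Genes of polyamine breakdown split in 1 against 4. Satl1, an X-linked gene named for its likeness to the spermidine/spermine acetyltransferase Sat1, was at 146 ± 9.74 CPM in knockout and 53.9 ± 3.24 CPM in wild type (SD, n = 4 each). Its log2 fold change of 1.44 (edgeR adjusted p = 1.03e-10) was the highest in the lists. Sat1, which acetylates spermidine and spermine for breakdown or export, was at 6.66 ± 0.636 CPM in knockout and 12.1 ± 1.61 CPM in wild type, a log2 fold change of -0.86 (edgeR adjusted p = 2.11e-05). Sat2 (-0.64), the spermine oxidase gene Smox (-0.52) and the acetylpolyamine oxidase gene Paox (-0.41) were also lower. The call of Paox was lost without knockout library 2 or 3 or wild-type library 1, 2 or 3 (edgeR adjusted p between 0.0502 and 0.101).

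Genes that supply ornithine and arginine were lower. Of 11 genes 8 were tested, 7 of them were called lower and the remaining gene was not called, with a median log2 fold change of -0.56. Ass1, which encodes argininosuccinate synthase of arginine synthesis, was at 42.6 ± 5.04 CPM in knockout and 125 ± 13.4 CPM in wild type (SD, n = 4 each), a log2 fold change of -1.56 (edgeR adjusted p = 1.55e-09). Ornithine aminotransferase (Oat, -0.71), the cationic amino acid carrier Slc7a1 (-0.57) and the creatine synthesis gene Gatm (-0.50), whose enzyme releases ornithine, were lower too. Arg2, which encodes an arginase that makes ornithine, was at 1.26 ± 0.174 CPM in knockout and 1.09 ± 0.243 CPM in wild type and was not called (log2 fold change 0.21, edgeR adjusted p = 0.482).

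Of 8 tested genes that make S-adenosylmethionine or recycle methylthioadenosine, the by-product of both aminopropyl transfers, 4 were lower and 1 was higher. Mat2a, the catalytic subunit gene of the synthetase, was at 110.2 ± 2.10 CPM in knockout and 159 ± 11.99 CPM in wild type (SD, n = 4 each), a log2 fold change of -0.53 (edgeR adjusted p = 1.98e-06). Its regulatory subunit gene Mat2b (-0.68) and the salvage genes Mtap (-0.49) and Adi1 (-0.81) were lower. The salvage gene Apip was higher by 0.34 (edgeR adjusted p = 0.0202), a call lost without knockout library 4 or wild-type library 2 or 3 (edgeR adjusted p between 0.0580 and 0.0649).

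Spermidine also provides the side chain of hypusine, a modified lysine of the translation factor eIF5A. Among its 4 genes, Dhps, which encodes the enzyme that transfers the side chain, was lower by 0.58 on the log2 scale, with 8.57 ± 0.575 CPM in knockout and 12.8 ± 0.957 CPM in wild type (SD, n = 4 each; edgeR adjusted p = 0.000157). Dohh, which encodes the hydroxylase of the next step, had a log2 fold change of -0.31 and was not called (edgeR adjusted p = 0.0668), though it passed without knockout library 1 (edgeR adjusted p = 0.00998) or wild-type library 3 (edgeR adjusted p = 0.0339). Eif5a itself was at 442 ± 26.6 CPM in knockout and 455 ± 21.5 CPM in wild type, and was not called (edgeR adjusted p = 0.525).

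Of 9 tested transport genes, 3 were higher and 5 were lower, with a median log2 fold change of -0.22. Slc22a16, a carnitine and polyamine carrier gene expressed in testis, was at 240.1 ± 15.3 CPM in knockout and 195 ± 10.6 CPM in wild type (SD, n = 4 each), a log2 fold change of 0.30 (edgeR adjusted p = 0.000402). The organic cation carrier gene Slc22a3 (0.50) was also higher, as was Slc12a8 (0.47), whose call was lost without knockout library 3 or wild-type library 3 (edgeR adjusted p = 0.0605 and 0.0648). Slc3a2, the shared heavy chain gene of several amino acid carriers, was lower at 106 ± 7.89 CPM in knockout and 171 ± 6.71 CPM in wild type, a log2 fold change of -0.69 (edgeR adjusted p = 1.62e-07). Atp13a2, whose protein exports polyamines from lysosomes, was lower (-0.48), as were the vesicular polyamine carrier gene Slc18b1 (-0.82) and the cation exporter gene Slc47a1 (-0.77).

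Of the 3 tested regulators and partners, 2 were lower. Mycn, a relative of Myc whose protein activates Odc1 transcription, had a log2 fold change of -1.13 (edgeR adjusted p = 0.000119), with 2.05 ± 0.546 CPM in knockout and 4.47 ± 0.554 CPM in wild type (SD, n = 4 each). Nqo1, whose protein binds ornithine decarboxylase and shields it from the proteasome, had one of -0.98. Ppp1r16a, which encodes a phosphatase subunit described as a partner of antizyme 3, was higher by 0.20 (edgeR adjusted p = 0.0177), a call lost without knockout library 1 or wild-type library 2 (edgeR adjusted p = 0.0671 and 0.0722).

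**Figure D5:**
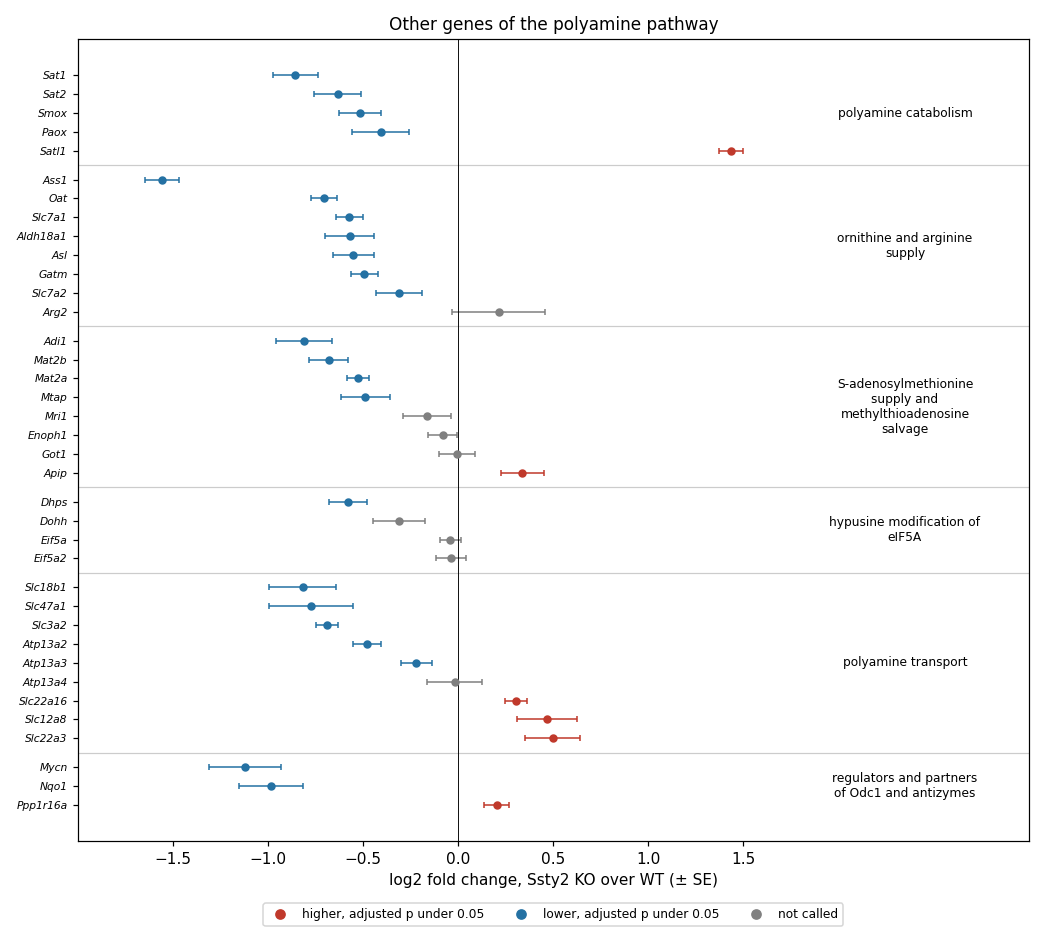
Log2 fold change, knockout over wild type, with its standard error, of the 37 tested genes in the 6 pathway lists, which are named at the right. Satl1 at 1.44 stands to the right of all others and Ass1 at -1.56 to the left, and 23 of the 37 genes are called lower.

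Other genes were ranked by how closely their log2 profile over the 8 libraries, of CPM plus 0.5 and centred on its own mean, followed that of Oaz3 or Amd2. Among 10575 genes of at least 10 CPM, Gsg1, a germ cell gene, had the smallest root-mean-square difference from Oaz3, at 0.0302 log2 units. Among 19071 genes of at least 1 CPM, Tma7-ps (0.184), Cryaa (0.230) and Gm20854 (0.233) were nearest to Amd2. Tma7-ps, a pseudogene, was at 0.561 ± 0.148 CPM in knockout and 6.16 ± 0.509 CPM in wild type, and Cryaa, which encodes a lens crystallin, was at 0.0807 ± 0.0736 CPM in knockout and 2.42 ± 0.219 CPM in wild type (SD, n = 4 each). Gm20854 had no count in knockout and was at 2.22 ± 0.184 CPM in wild type. The distances of these low-count genes depend on the 0.5 added, and the fitted log2 fold change of Cryaa was -4.87, beside -3.37 for Amd2.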

How the data were processed

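RNA sequencing of 4 Ssty2 knockout and 4 wild-type testis libraries was analysed from the table of raw counts per Ensembl gene that the authors deposited. Per the labels' protocols, TRIzol RNA was cleared of DNA and sequenced from TruSeq libraries. The build was mm39 and the tools were FastQC, Trimmomatic, featureCounts, STAR and DESeq2, per the submitters' processing notes. Their versions, the strand setting and the handling of reads with several matches were not given in the sources used.

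Counts were tested with edgeR 4.0.16 in R 4.3.3 (quasi-likelihood, genotype as the only term, scaling by TMM, the trimmed mean of M-values, filterByExpr with a minimum count of 10 and total of 15), with Benjamini-Hochberg adjustment over 21952 genes and a threshold of 0.05. The fit was tested on simulated data. Ratios of counts were compared by two-sided exact permutation tests (scipy 1.17.1). Alternatives used DESeq2 1.42.0, limma 3.58.1, other scalings and filters, a replicate block and each library left out. The limit for a count of 0 covers counting error only.

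Gene names and lengths came from GENCODE vM21 (GRCm38), in which 52073 of 56748 identifiers matched. That build differs from the files' build, so only chromosomes are given for genes. The start regions came from RefSeq (GRCm38.p6), where 6 of the 10 members had an entry. Rows related to members were those that share with a member 10% or more of the 31-base words of either gene, or are named as its pseudogene; rows annotated as miRNA or misc_RNA that met this were left out.

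The members, pathway lists, marker lists and tests were chosen with earlier results of these data known. The genes named are the 10 members, their related rows, the called members of each pathway list (at most 4 in each direction by smallest p), Ssty2, and the 3 genes most like each of Oaz3 and Amd2, some of which are not reported here. Arg2, Dohh, Eif5a and Mrpl9 were named after their values were seen.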

Additional observations from a re-analysis of the deposited data

Results flagged for a closer look

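In groups of 4 libraries, the gap from the highest or lowest value to its nearest neighbour, as a part of the whole range, was compared with Dixon's critical value. Of 124 groups examined, 4 were above it, and chance alone gives about 1 in 20. Azin2 in knockout library 1 stood at 323.5 CPM, above the other 3 knockout libraries. Gm7993, the Odc1-related pseudogene, stood at 56.5 CPM in knockout library 1 and at 1.08, 1.18 and 0.873 CPM in knockout libraries 2 to 4. Gm49077, the antisense gene at Azin1, stood at 16.3 CPM in wild-type library 2. Sat2 stood at 5.35 CPM in knockout library 3 and at 4.67, 4.60 and 4.60 CPM in knockout libraries 1, 2 and 4.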

How the results depend on the processing

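The 8 called members kept their direction and call under all 14 alternatives. In those alternatives 3 members were higher, and 5 to 7 were lower. Library totals in place of TMM shifted the median of all genes to -0.15, gave 3848 genes higher and 8255 lower in place of 5744 and 6008, and added calls for Sms (-0.46, adjusted p = 0.00895) and Azin1 (-0.18, adjusted p = 0.0164). The call of Slc12a8 was lost with DESeq2 (adjusted p = 0.0548), library totals (0.0907) and no filter on low counts (0.0628), that of Mrpl9 with DESeq2 (0.0531) and no filter (0.0531), that of Gm9115 with DESeq2 (0.0696), and those of Gm49077 (0.253), Apip (0.157) and Ppp1r16a (0.459) with library totals. Dohh passed with library totals (adjusted p = 0.0112), no filter (0.0483) and the replicate block (0.0495), and Eif5a (0.0062) and Tdrkh (0.00162) with library totals. Sms also passed with limma-voom (-0.34, adjusted p = 0.0435). Gm7993 passed with no filter on low counts (-1.57, adjusted p = 9.26e-68), with limma-voom (-3.96, adjusted p = 0.00015) and with the replicate block (-2.90, adjusted p = 0.00189). Its standard error without the filter was 0.0881, against 0.754 in the main fit, though its knockout counts were 1053, 23, 25 and 15. The unfiltered p-value of Gm7993 therefore does not reflect the spread of the knockout libraries and is not read as evidence. With library totals the S-adenosylmethionine list and the regulators each had 0 genes higher, and the hypusine list had 3 lower; that list had 2 lower with no filter on low counts and 2 with the replicate block. With each library left out in turn, the S-adenosylmethionine list had 0 to 1 higher, the regulators 0 to 1 higher and the hypusine list 1 to 2 lower. The ratio of Oaz3 to spermatid markers turned to -0.054 with elongating spermatid markers (adjusted p = 0.467). The cause of these shifts was not tested. Without 1 library, the exact permutation test of a ratio cannot go below p = 0.0571.

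Same-numbered libraries deviated together only weakly (r = 0.0123 to 0.113), although 3 of 4 correlated best with their own number. No label states a pairing, so the numbers were used only in an alternative, the replicate block. It gave 5915 genes higher and 6203 lower, and 3 and 5 members. Ratios were then tested by an exact sign-flip test of the 4 paired differences, which cannot go below p = 0.125. Its adjusted p was 0.175 for Amd2 over Amd1, Oaz3 over Oaz1, Azin2 over Azin1 and Odc1 over Oaz1. Sums of pseudogene counts, of Amd1 with Amd2, and lengths of protein-coding transcripts were chosen after seeing the data. The 34 Amd2 counts in knockout limit the precision of its fold change.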

Other observations

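Genes around the retrocopy and its parent were read out after the values of both were known. In annotation order, 24 tested genes lie between Amd2 and Amd1 on chromosome 10. Over all tested genes 53.5% were called, 26.2% higher and 27.4% lower, so calls among neighbours are common. Of the 10 tested genes nearest to Amd2, 5 on each side, 1 was called higher and 4 lower, with log2 fold changes between -0.58 and 0.59, beside -3.37 for Amd2. Of the 10 nearest to Amd1, 4 were called higher and 1 lower, with log2 fold changes between -0.47 and 0.91. Slc22a16 is among them, 3 tested genes away from Amd1.

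In all, 30 pseudogene and antisense rows related to members, Gm7993, Gm49077 and the Amd pseudogenes included, held 3243 counts in knockout and 6010 counts in wild type, and 6 of them were tested. Gm7993 alone held 1116 of these counts in knockout, 1053 of them in knockout library 1, and 3833 in wild type. The difference between the sums is therefore mostly that of this row. Gm9115, an Odc1-related row on the X chromosome, was lower (-0.98, edgeR adjusted p = 0.0344), and the call was lost without knockout library 2, 3 or 4 or wild-type library 1 or 2 (edgeR adjusted p between 0.0518 and 0.115). AW146154, a protein-coding gene that shares 11.4% of the 31-base words of Odc1, was lower (-0.70, edgeR adjusted p = 0.0168), a call lost without knockout library 2 or 4 or wild-type library 4 (edgeR adjusted p between 0.0520 and 0.0642).

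Markers of the remaining cell types were lower or not called. Of 6 peritubular myoid markers 5 were lower, with summed levels of 91.6 to 115 CPM in knockout and 146 to 167 CPM in wild type. Of 7 macrophage markers 4 were lower, with 70.1 to 87.2 CPM in knockout and 102 to 122 CPM in wild type, and of 5 endothelial markers 2 were lower. Of 3 erythroid markers, 0 were called by edgeR or DESeq2, and 0 had an unadjusted p under 0.05.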
